A study of Mus musculus with 19 samples.

Results

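The genes described here encode the nuclear subunits of the mitochondrial respiratory chain and the ATP synthase. They were chosen by gene symbol alone: symbols that begin with Nduf, Uqcr, Atp5 or Cox4 to Cox8, together with Sdhb, Sdhc, Sdhd, Cyc1 and Cycs. The rule found 110 of the 25697 probes of the array, which name 87 genes. Of these, 78 had a probe detected on at least 3 of the 19 arrays and were tested, among 9422 features tested in all. Complex I is represented by 34 genes (32 tested), complex II by 3 (3 tested), complex III by 9 (7 tested), cytochrome c by 1, complex IV by 19 (15 tested) and the ATP synthase, complex V, by 16 (15 tested). A further 5 genes, all tested, carry the Ndufaf symbols of factors that assemble complex I. Sdha was not analysed here.

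Total RNA came from mouse embryonic stem cells (ESC), grown with LIF and inhibitors of GSK and MEK that hold them in the naive state, and from epiblast-like cells (EpiLC), grown in the same serum medium without these additions. Each cell type received either ethanol, the solvent, or 1 µM tamoxifen for 36 h to delete Foxd3, a forkhead transcription factor. The 4 groups hold 3 samples each, and 7 of the 12 samples were read on arrays of both hybridization rounds. The labels used here give neither the allele nor the recombinase, so loss of Foxd3 and tamoxifen itself cannot be told apart, and they do not say that samples of a group were separate cultures. The p-values therefore rest on a spread that may be technical.

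The Foxd3 probe was detected on 0 of 19 arrays (lowest detection p-value 0.239), so the deletion rests on the labels. The cell states were checked with marker genes. Of the naive markers, 7 of the 8 detected were lower in EpiLC, and the 7 detected EpiLC markers were higher, in either treatment. Of these 7, Fgf5 and Lef1 were detected on EpiLC arrays alone and so passed the filter through the group where they are high. Both marker sets also moved with tamoxifen within EpiLC, as given with the tamoxifen results. Of 8 fibroblast markers, 6, collagens among them, were detected on no array. Of the other 2, Dcn was detected on 0 ESC arrays and on all 8 EpiLC arrays, and was at least 2.02-fold higher in EpiLC in ethanol and at least 2.38-fold in tamoxifen, while Thy1 was lower in EpiLC (log2 -0.56 and -0.61). The summed intensity of these 2 was 284.8 to 294.3 in ESC and 270.0 to 362.0 in EpiLC in ethanol, and 183.8 to 234.3 and 223.1 to 355.6 in tamoxifen. The part of such cells in the comparisons of EpiLC with ESC was not tested. Between 40.2 and 44.7% of probes were detected per array. In bulk RNA, fewer cells of a type and less RNA per cell cannot be told apart.

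The respiratory chain passes electrons from NADH through complex I, or from succinate through complex II, to coenzyme Q, complex III, cytochrome c and finally complex IV, which reduces oxygen. Complexes I, III and IV pump protons out of the mitochondrial matrix, and the ATP synthase uses their return to make ATP. Naive mouse ESC are known to respire actively, and cells of the later epiblast state are known to rely more on glycolysis. Some subunits are encoded in mitochondrial DNA and these were not analysed here.

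EpiLC were compared with ESC in ethanol to ask how these genes differ between the states with Foxd3 intact. Respiratory chain genes were lower in EpiLC far more often than higher. Of 78 genes, 26 (33.3%) were lower and 1, Ndufaf7, was higher, each by its brightest probe, at a Benjamini-Hochberg adjusted p under 0.05 from limma, over all features tested. Among all 9422 features 56.3% were called, 26.4% lower and 29.8% higher. The median log2 change of the 78 genes was -0.17, beside 0.03 over all features. The samples of the EpiLC group all lay below those of the ESC group for 42 of 78 genes, against 29.2% of all features. The share called lower was thus somewhat above that of all features, while the share called higher was far below it. The share called in either direction, 34.6%, was below the 56.3% of all features.

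The same comparison in tamoxifen asks this with Foxd3 deleted. Here 36 of 78 genes (46.2%) were lower and Ndufaf7 was again the 1 higher gene, against 56.5% of all features called, 27.1% lower and 29.4% higher. With samples scaled to equal medians, 2096 features were higher and 3007 lower in place of 2770 and 2556. The median log2 change was -0.25, beside 0.01 over all features. The groups did not overlap and EpiLC were lower for 40 of 78 genes, against 30.6% of all features. Of the genes called lower, 23 were called in both treatments, 3 in ethanol alone and 13 in tamoxifen alone. In the test of the difference between treatments, no gene passed without the sample number as a block, and with it Cox6c, one of the 13, did (adjusted p = 0.00836 by limma). Both fits are given with the tamoxifen results. Leaving out tamoxifen EpiLC sample 3 reduced the genes called in tamoxifen from 37 to 24, and all features called from 5326 to 4709.

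**Figure D1:**
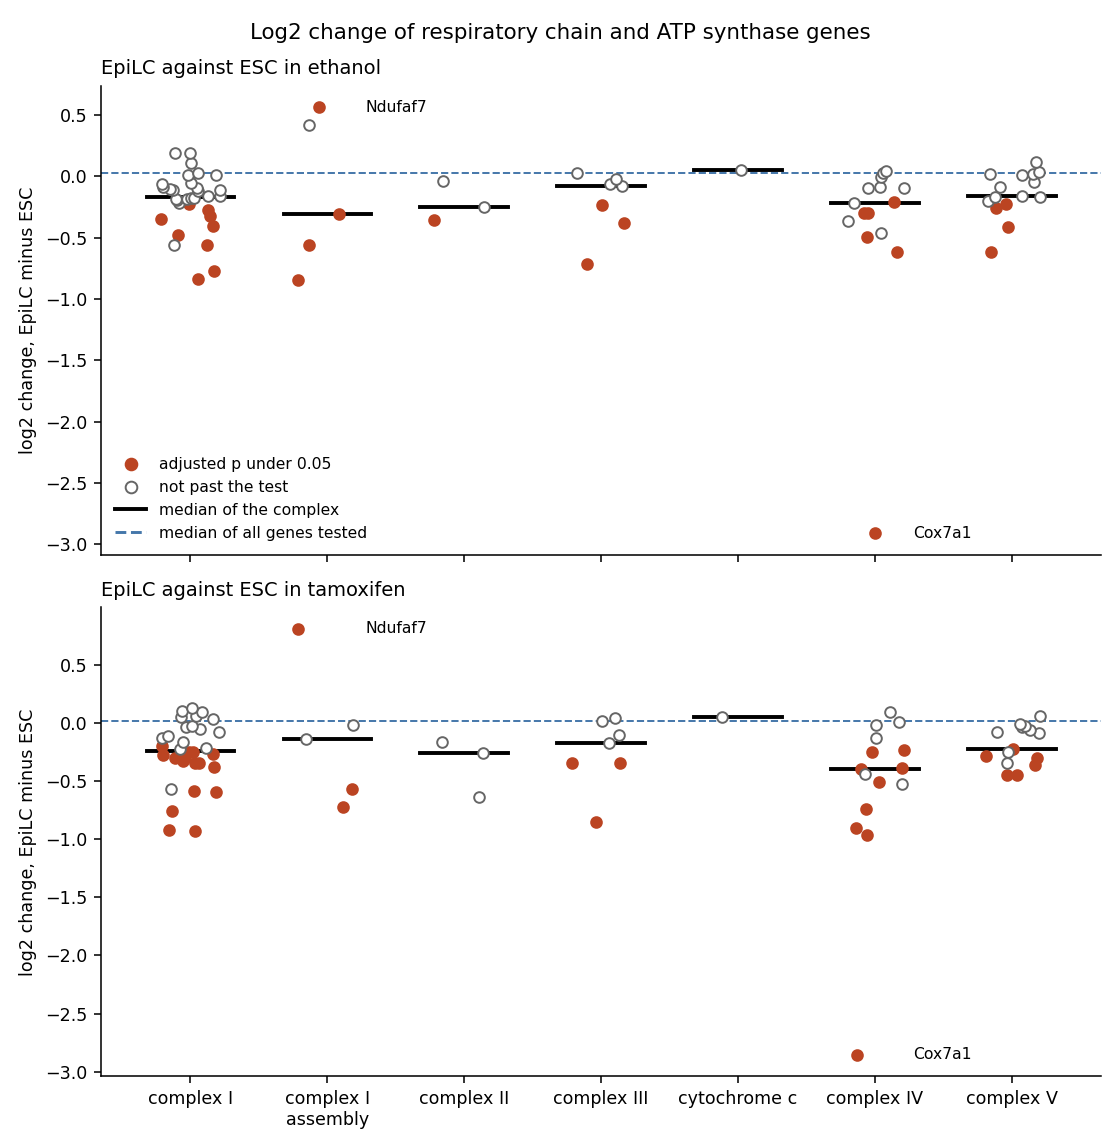
Log2 change from ESC to EpiLC (vertical axis) of the 78 tested genes by complex, in ethanol (upper panel) and tamoxifen (lower panel). Filled points passed an adjusted p under 0.05, black bars are medians of a complex and the dashed line is the median of all features. Most points lie below the dashed line, Cox7a1 is far below the rest and Ndufaf7 is the 1 filled point above 0.

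Genes called lower were found in every complex in ethanol, in shares near or above that of all features. In ethanol 9 of 32 complex I genes (28.1%) and 4 of 15 complex V genes (26.7%) were lower, about the 26.4% of all features. The counts were 1 of 3 for complex II, 3 of 7 for complex III (42.9%) and 6 of 15 for complex IV (40%). In tamoxifen, where 27.1% of all features were lower, they were 16 of 32 for complex I (50%), 0 of 3 for complex II, 3 of 7 for complex III, 9 of 15 for complex IV (60%) and 6 of 15 for complex V (40%). Median log2 changes in ethanol were -0.17 for complex I, -0.25 for complex II, -0.08 for complex III, -0.22 for complex IV and -0.16 for complex V, and in tamoxifen -0.24, -0.26, -0.18, -0.40 and -0.23. The complexes were not tested against each other. Each complex also held a gene that moved little. The smallest changes in ethanol were 0.01 for Ndufa9 of complex I (SE 0.08), -0.04 for Sdhb (SE 0.15), -0.02 for Cyc1 (SE 0.08), -0.01 for Cox5b of complex IV (SE 0.08) and 0.01 for Atp5c1 of the ATP synthase (SE 0.10), with adjusted p from limma between 0.84 and 0.951. In the assembly factors the smallest was -0.31 for Ndufaf3 (SE 0.12, adjusted p = 0.0496), a call lost under 13 of 23 alternatives.

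The median of the 78 genes, taken in each sample against the ESC ethanol mean, separated the states. It was 0.012, -0.008 and -0.024 in the ESC ethanol samples and 0.036, -0.001 and -0.009 in ESC with tamoxifen. In EpiLC it was -0.092, -0.195 and -0.192 in ethanol and -0.12, -0.267 and -0.285 in tamoxifen. All 6 EpiLC samples were below all 6 ESC samples, and sample 1 was the least low EpiLC sample in each treatment.

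**Figure D2:**
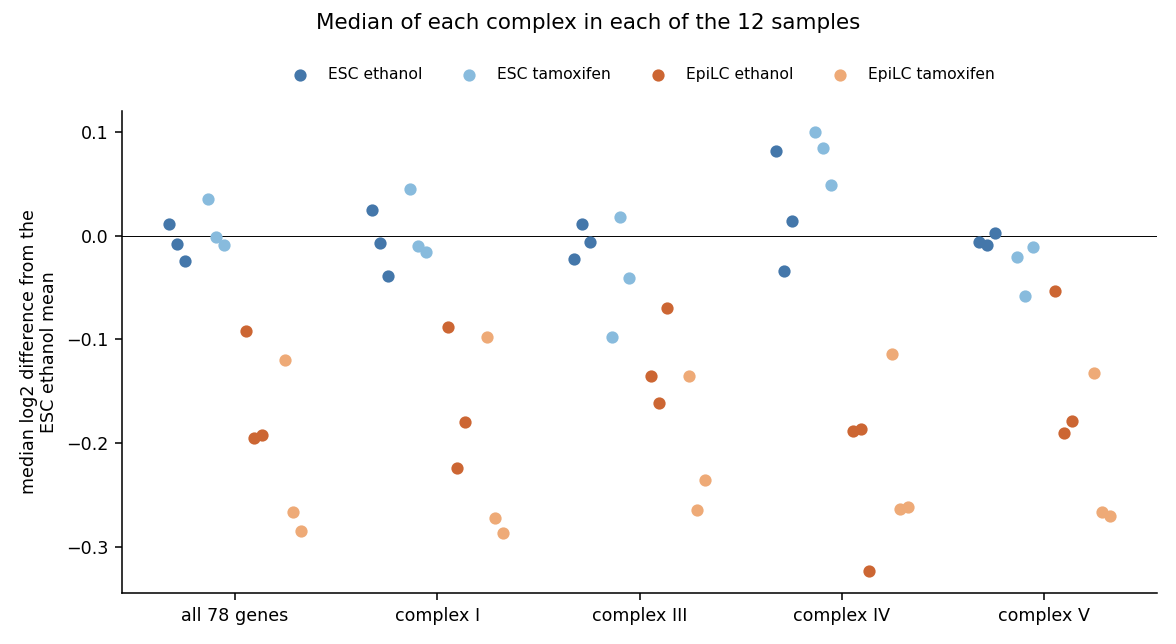
Median log2 difference from the ESC ethanol mean (vertical axis) over all 78 genes and over the genes of complexes I, III, IV and V, with 1 point per sample and 3 samples per group. For all 78 genes, complex I and complex IV, every EpiLC sample lies below every ESC sample; in complexes III and V single samples of the states overlap.

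Cox7a1, known as the heart and skeletal muscle isoform of a small complex IV subunit, had the largest change of the 78 genes in both comparisons. Its normalized log2 intensity was 11.67, 11.76 and 11.95 in the ESC ethanol samples and 8.91, 8.61 and 9.12 in the EpiLC ethanol samples. With tamoxifen it was 11.70, 11.96 and 12.18 in ESC and 9.20, 8.98 and 9.10 in EpiLC. Every ESC sample was at least 2 log2 units above every EpiLC sample. Cox7a1 was 7.52-fold lower in EpiLC in ethanol (log2 -2.91, SE 0.15, n = 3 per group, adjusted p = 2.46e-08 by limma) and 7.24-fold lower in tamoxifen (adjusted p = 3.09e-08).

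Its relatives gave smaller changes, and the differences from Cox7a1 were not tested. Cox7a2, the widely expressed isoform of the same subunit, read 8.73, 8.28 and 8.56 in ESC in ethanol and 8.46, 7.85 and 7.88 in EpiLC in ethanol, and these ranges overlapped. Its change was -0.46 in ethanol (SE 0.22, adjusted p = 0.0888) and -0.90 in tamoxifen (SE 0.22, adjusted p = 0.00385), both by limma. Cox7a2l, a factor that joins complexes III and IV into supercomplexes, gave 0.05 in ethanol and -0.02 in tamoxifen (SE 0.08 each), and did not pass the test. The Cox7a2 signal differed by 1.01 on the log2 scale between the hybridization rounds, that of Cox7a1 by -0.13.

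Cox5a, a complex IV subunit next to the catalytic core, was lower in every EpiLC sample. It read 14.15, 14.31 and 14.19 in ESC and 13.73, 13.57 and 13.49 in EpiLC in ethanol, with no overlap, and the change was -0.62 (SE 0.08, adjusted p = 6.3e-05 by limma). In tamoxifen it was -0.74 (SE 0.08, adjusted p = 1.48e-05). Cox6b1, which helps to hold the complex IV dimer together, fell by 0.50 in ethanol (SE 0.10, adjusted p = 0.000883) and by 0.51 in tamoxifen (SE 0.10, adjusted p = 0.000735). Its partner isoform Cox6b2, best known from testis, gave -0.22 in ethanol (adjusted p = 0.128) and fell by 0.39 in tamoxifen (adjusted p = 0.0132).

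Cox6c, a broadly expressed subunit of complex IV, gave -0.09 in ethanol without passing. In tamoxifen it fell by 0.96, the largest fall there after that of Cox7a1. Cox7b, detected on 17 of 19 arrays, gave -0.36 and -0.53 without passing. Cox4i1, Cox6a1 and Cox8a had smaller changes than Cox5a and Cox6b1. Cox4i1, the common form of the largest nuclear subunit, fell by 0.20 in ethanol and by 0.24 in tamoxifen (SE 0.07 each, limma adjusted p = 0.0307 and 0.0154), and the call in ethanol was lost under 9 of 23 alternatives. Cox6a1 fell by 0.29 and by 0.25, and Cox8a by 0.30 and by 0.40, all past the test. Cox8c, another isoform known from testis, was detected on 11 of 19 arrays and gave -0.09 and -0.44 without passing the test. Ndufa4, once counted as a complex I subunit and now placed in complex IV, gave -0.09 and -0.13 (SE 0.08 each) and did not pass. The isoforms Cox4i2, Cox6a2, Cox7b2 and Cox8b were detected on no array.

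**Figure D3:**
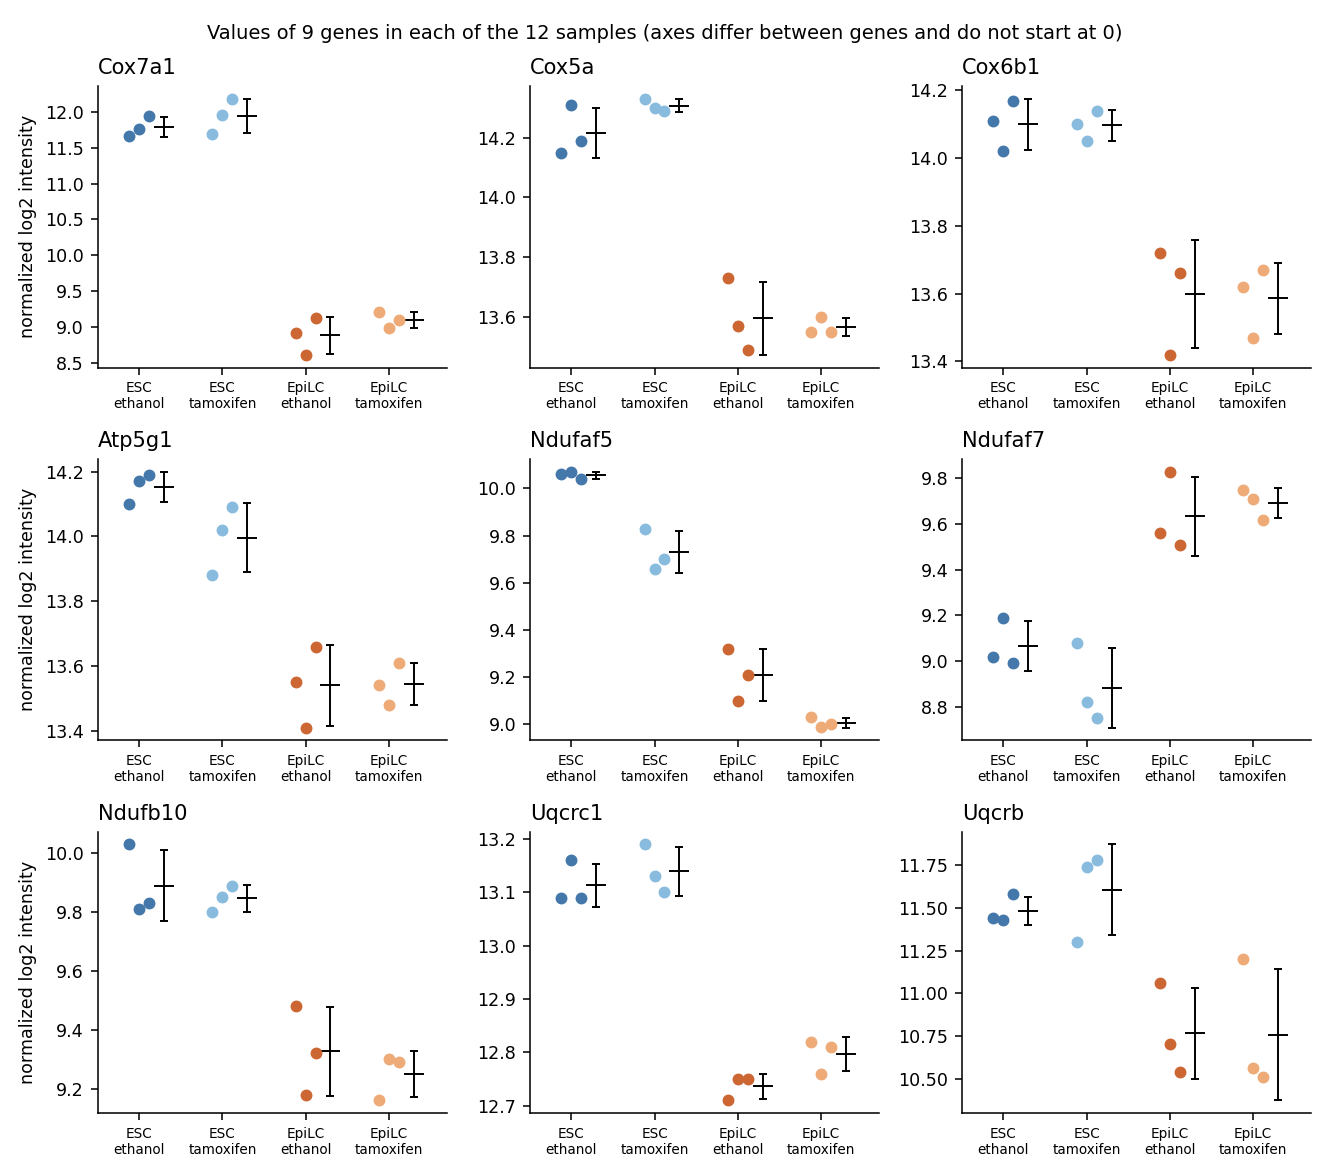
Normalized log2 intensity (vertical axis, a separate scale for each gene that does not start at 0) of 9 genes in the 3 samples of each group, with the mean and SD beside the points. Ndufaf7 is higher in all EpiLC samples, the other 8 genes are lower there, and Ndufaf5 is also lower in ESC with tamoxifen than with ethanol.

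The 3 genes Atp5g1, Atp5g2 and Atp5g3 encode the same mature c subunit, which forms the rotating ring of the ATP synthase, behind different import signals. Of the 3, Atp5g1 alone was called in both treatments. Atp5g1 read 14.10, 14.17 and 14.19 in ESC and 13.55, 13.41 and 13.66 in EpiLC in ethanol. The groups did not overlap, and the gene was 1.53-fold lower in EpiLC (log2 -0.61, SE 0.09, adjusted p = 0.000126 by limma) and 1.37-fold lower in tamoxifen (adjusted p = 0.00122). Atp5g2 fell by 0.23 in ethanol (SE 0.07, adjusted p = 0.0182) and gave -0.08 in tamoxifen (adjusted p = 0.37). Atp5g3 read 14.76, 14.63 and 14.56 in ESC and 14.70, 14.66 and 14.65 in EpiLC, ranges that overlapped, with changes of 0.02 and -0.01 (SE 0.08 each). Differences between the 3 genes were not tested.

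**Figure D4:**
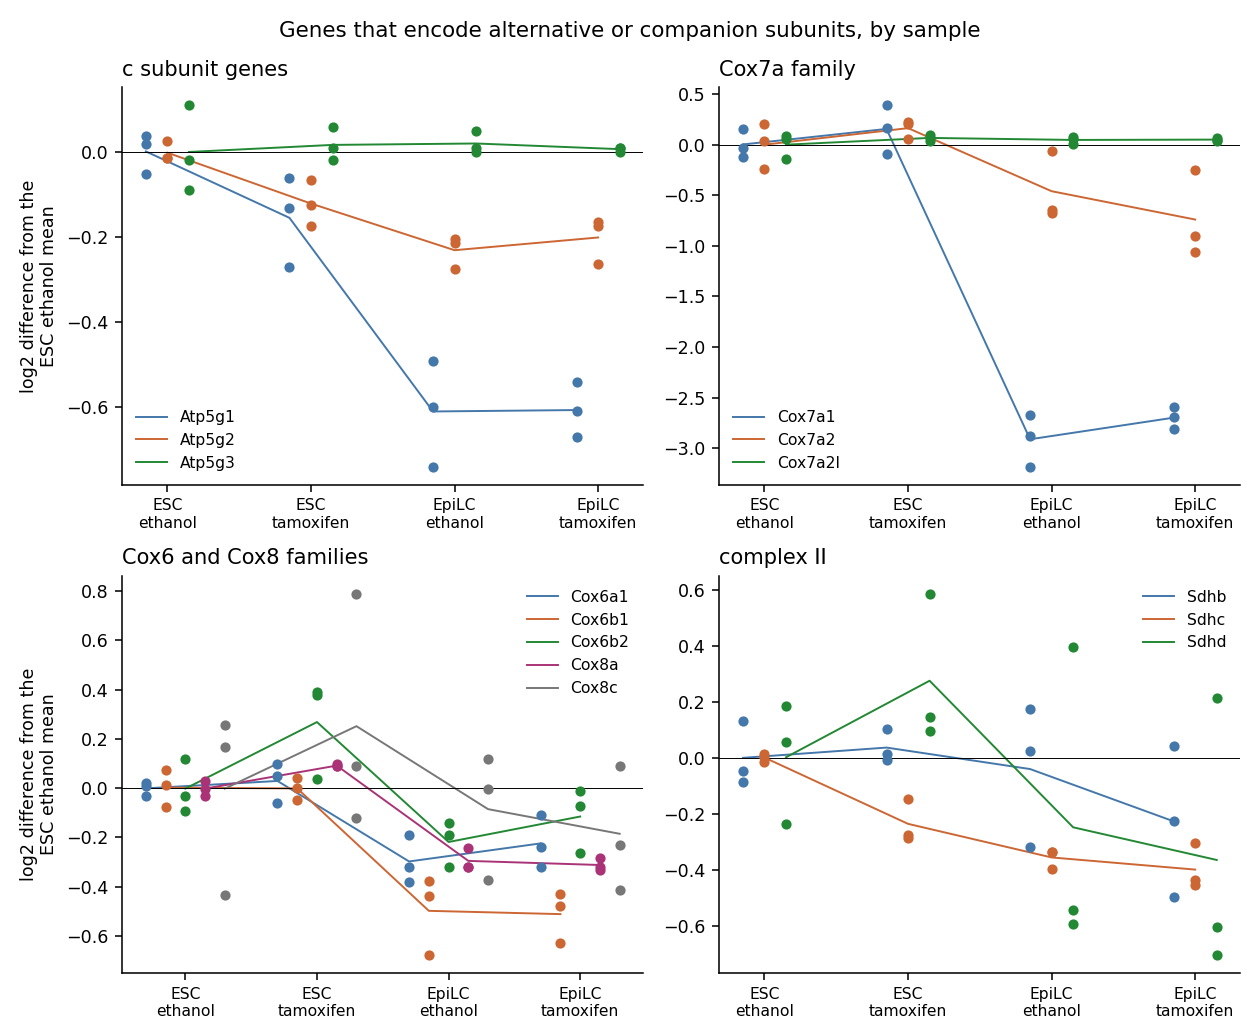
Log2 difference of each sample from the ESC ethanol mean of the same gene (vertical axis), with 1 point per sample and lines through the means of the 4 groups, for the c subunit genes, the Cox7a family, the Cox6 and Cox8 families and complex II. Atp5g1 and Cox7a1 separate from their relatives in EpiLC, and Sdhd in EpiLC and Cox8c in ESC scatter widely within groups.

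In the rest of the ATP synthase, single subunits of the head and of the stalks fell beside others that gave values near 0. Atp5d, the delta subunit of the central stalk, changed by -0.41 in ethanol (SE 0.09, limma adjusted p = 0.00228) and by -0.36 in tamoxifen. Atp5b, the catalytic beta subunit, gave -0.05 and -0.04 (SE 0.07 each) and did not pass. Atp5a1, the alpha subunit that alternates with it in the head, gave 0.02 and -0.34 with an SE of 0.30. Among the stator and membrane subunits, Atp5j2 fell in both treatments, with changes of -0.26 and -0.23. Atp5mpl and Atp5o fell in tamoxifen (-0.31 and -0.45) and gave -0.17 and -0.20 in ethanol without passing. Atp5pb, Atp5h and Atp5l passed in neither treatment, with changes between -0.25 and 0.06. Atp5j, of the stator, had 2 probes detected on all 19 arrays, and they disagreed. The brighter one gave -0.17 and -0.09 without passing, while the dimmer one was higher in EpiLC, by 0.30 in ethanol (limma adjusted p = 0.0113) and by 0.24 in tamoxifen (adjusted p = 0.0311). Atp5c1, the gamma subunit that turns inside the head, fell in tamoxifen, with a change of -0.29.

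Promoter windows of the c subunit genes are shown because these genes share a product and were not called alike. The other windows shown, of Cox7a1, Ndufaf5, Uqcrc1 and Ndufc1, were picked by name. The matches in the printed windows therefore do not stand for the genes as a whole. The RefSeq windows, on GRCm38.p6, run from 250 bases before to 50 bases after the start of transcription, and 71 of the 87 genes matched one by symbol. They were searched on both strands for 4 motifs known from nuclear genes of mitochondria: the NRF1 core CGCATGCG, the YY1 site AAGATGGC, the ETS or GABP site CCGGAAGT and the ERR element TCAAGGTCA. No motif contains another. Capitals below mark the matches. The windows lie at chr11:96075582-96075881 (minus strand) for Atp5g1, chr15:102670998-102671297 (minus) for Atp5g2, chr2:73911277-73911576 (minus) for Atp5g3, chr7:30183921-30184220 (plus) for Cox7a1, chr2:140170396-140170695 (plus) for Ndufaf5, chr9:108936398-108936697 (plus) for Uqcrc1 and chr3:51408906-51409205 (minus) for Ndufc1.
Atp5g1: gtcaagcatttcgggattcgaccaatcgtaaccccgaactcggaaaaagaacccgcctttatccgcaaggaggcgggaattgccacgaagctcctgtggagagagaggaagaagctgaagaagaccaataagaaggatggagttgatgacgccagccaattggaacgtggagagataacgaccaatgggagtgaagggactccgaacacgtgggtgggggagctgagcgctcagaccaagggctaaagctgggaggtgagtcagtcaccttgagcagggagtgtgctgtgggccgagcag
Atp5g2: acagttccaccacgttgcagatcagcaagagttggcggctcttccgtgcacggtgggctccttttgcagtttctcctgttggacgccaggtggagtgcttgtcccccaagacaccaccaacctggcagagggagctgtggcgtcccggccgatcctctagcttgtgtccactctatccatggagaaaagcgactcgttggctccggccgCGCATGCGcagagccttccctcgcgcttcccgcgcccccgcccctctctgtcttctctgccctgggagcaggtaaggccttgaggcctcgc
Atp5g3: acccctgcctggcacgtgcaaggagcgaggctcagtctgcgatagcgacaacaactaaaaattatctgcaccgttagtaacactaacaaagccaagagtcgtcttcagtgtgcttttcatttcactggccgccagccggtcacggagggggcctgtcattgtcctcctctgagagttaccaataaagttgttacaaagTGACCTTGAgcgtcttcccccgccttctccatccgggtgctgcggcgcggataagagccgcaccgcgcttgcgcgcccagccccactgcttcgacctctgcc
Cox7a1: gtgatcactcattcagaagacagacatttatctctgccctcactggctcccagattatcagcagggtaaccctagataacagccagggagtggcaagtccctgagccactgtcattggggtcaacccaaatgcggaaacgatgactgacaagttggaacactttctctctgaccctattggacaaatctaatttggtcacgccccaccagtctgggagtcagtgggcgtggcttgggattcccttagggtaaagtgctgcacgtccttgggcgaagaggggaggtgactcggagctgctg
Ndufaf5: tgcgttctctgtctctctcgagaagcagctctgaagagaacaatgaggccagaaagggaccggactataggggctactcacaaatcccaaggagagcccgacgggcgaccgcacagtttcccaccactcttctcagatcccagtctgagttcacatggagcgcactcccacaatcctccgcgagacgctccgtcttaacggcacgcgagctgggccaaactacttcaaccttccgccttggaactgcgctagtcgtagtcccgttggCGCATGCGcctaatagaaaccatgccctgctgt
Uqcrc1: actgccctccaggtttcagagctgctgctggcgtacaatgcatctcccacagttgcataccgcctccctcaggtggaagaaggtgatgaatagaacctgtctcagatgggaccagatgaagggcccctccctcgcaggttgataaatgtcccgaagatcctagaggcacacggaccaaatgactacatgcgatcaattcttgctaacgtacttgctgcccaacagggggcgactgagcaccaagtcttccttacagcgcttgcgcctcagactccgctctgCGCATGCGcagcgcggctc
Ndufc1: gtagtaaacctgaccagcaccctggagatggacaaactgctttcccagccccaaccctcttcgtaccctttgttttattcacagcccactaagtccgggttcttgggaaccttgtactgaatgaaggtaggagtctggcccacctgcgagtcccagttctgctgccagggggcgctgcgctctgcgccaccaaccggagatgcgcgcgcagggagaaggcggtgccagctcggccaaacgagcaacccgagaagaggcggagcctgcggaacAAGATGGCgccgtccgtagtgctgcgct

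Atp5g2, Ndufaf5 and Uqcrc1 hold the NRF1 core, Atp5g3 holds the ERR element on the opposite strand, Ndufc1 holds the YY1 site, and neither Atp5g1 nor Cox7a1 holds any of the 4. The NRF1 core was in the windows of 11 of 71 genes (15.5%), beside 2.07% of all 27025 genes with a window. The YY1 site was in 10 (14.1%, beside 3.19%), the ETS or GABP site in 5 (7.04%, beside 4.31%) and the ERR element in 2, Atp5g3 and Sdhd (2.82%, beside 0.466%). Among the 32 genes with a window that were called lower in EpiLC in either treatment, 5 held the NRF1 core (15.6%), 4 the YY1 site (12.5%), 1 the ETS or GABP site (3.12%) and 0 the ERR element. Among the other 34 tested genes with a window, 5 (14.7%), 6 (17.6%), 4 (11.8%) and 2 (5.88%) did. These shares were not tested. A match is a description of letters, not of binding.

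In complex I, the subunits of the outer end of the membrane arm (Ndufb symbols) were called lower in 4 of 10 genes in ethanol and 6 of 10 in tamoxifen. In the peripheral arm, which holds the NADH site and the iron-sulphur clusters, 2 and 5 of 14 genes (14.3 and 35.7%) were called lower. Over all features 26.4 and 27.1% were, and the arms were not tested against each other. Ndufb10, of the outer arm, read 10.03, 9.81 and 9.83 in ESC and 9.48, 9.18 and 9.32 in EpiLC in ethanol without overlap, and fell by 0.56 (SE 0.10, adjusted p = 0.000416 by limma) and in tamoxifen by 0.60 (SE 0.10). Ndufa3, a small membrane-arm subunit, fell by 0.48 and by 0.33 (SE 0.08 each). Ndufs5-ps, a pseudogene entry whose sequence resembles that of the subunit gene Ndufs5 and whose signal may not be its own, fell by 0.40 and by 0.58 (SE 0.09 each).

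Among the peripheral arm subunits, the 2 called in both treatments were Ndufa6, with changes of -0.35 and -0.28 (SE 0.09 each), and Ndufv3, with changes of -0.22 and -0.27 (SE 0.09 each). The Ndufv3 call in ethanol was lost under 14 of 23 alternatives, with limma adjusted p of 0.0553 to 0.186 in the 9 of 12 omissions of 1 sample that lost it. Its 2 dimmer probes, detected on all 19 arrays, gave -0.38 and -0.52 in ethanol (limma adjusted p = 0.0131 and 0.00397). In tamoxifen they gave -0.30 and -0.28 (limma adjusted p = 0.0393 and 0.0795). Ndufv2 and Ndufs8, which both carry iron-sulphur clusters, and Ndufa12 passed in tamoxifen, with changes of -0.30, -0.35 and -0.38. Ndufv1, which binds NADH, gave -0.10 and -0.05, and Ndufs3 and Ndufs7 gave -0.09 and -0.16 in ethanol. Ndufs4, a late addition to the arm, gave 0.19 and 0.13 (SE 0.09 each) by its brightest probe. None of these 4 genes passed the test. The dimmer Ndufs4 probes, each detected on all 19 arrays, did not pass either and disagreed with it in tamoxifen. They gave 0.108, -0.028 and 0.066 in ethanol and -0.235, -0.356 and -0.528 in tamoxifen. In the membrane arm Ndufb8 and Ndufc1 fell in both treatments, with changes of -0.27 and -0.32 in ethanol. Ndufb6, Ndufa8 and Ndufa13 fell in tamoxifen, with changes of -0.20, -0.25 and -0.25, calls lost under 7, 4 and 5 of 24 alternatives. Ndufa1 and Ndufa10 gave 0.19 and 0.11 in ethanol, without passing the test.

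Other Ndufb changes rest on dim or unsteady probes. Ndufb4 was detected on 0 of 3 EpiLC ethanol arrays and on 4 of 5 ESC ethanol arrays, and was at least 1.41-fold higher in ESC (adjusted p = 0.0216 by limma). In that bound each EpiLC array counts as the lowest detected signal on it, or as the probe's own signal where that is higher. Ndufb9 read 7.89, 7.73 and 7.78 in ESC and 7.62, 6.59 and 6.88 in EpiLC in ethanol, and its fall of 0.77 had an SE of 0.28 (limma adjusted p = 0.0373, lost under 9 of 23 alternatives). Ndufb5 gave -0.56 in ethanol (adjusted p = 0.109) and fell by 0.92 in tamoxifen (SE 0.28, adjusted p = 0.0141).

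The assembly factors of complex I held, in ethanol, the largest fall after that of Cox7a1, and in both treatments the single rise among the brightest probes of the 78 genes. Ndufaf5, which modifies a peripheral arm subunit early in assembly, read 10.06, 10.07 and 10.04 in ESC and 9.32, 9.10 and 9.21 in EpiLC in ethanol. With tamoxifen it read 9.83, 9.66 and 9.70 in ESC and 9.03, 8.99 and 9.0 in EpiLC. The 4 groups did not overlap, and the change from ESC to EpiLC was -0.85 in ethanol (SE 0.08, adjusted p = 3.62e-06 by limma) and -0.73 in tamoxifen (adjusted p = 1.38e-05). Ndufaf1, a chaperone of the membrane arm, fell by 0.56 and by 0.57 (SE 0.10 each).

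Ndufaf7, a methyltransferase that acts on a peripheral arm subunit, moved the other way. It read 9.02, 9.19 and 8.99 in ESC and 9.56, 9.83 and 9.51 in EpiLC in ethanol, and with tamoxifen 9.08, 8.82 and 8.75 in ESC and 9.75, 9.71 and 9.62 in EpiLC. All EpiLC samples were above all ESC samples. It was 1.48-fold higher in EpiLC in ethanol (log2 0.56, SE 0.12, adjusted p = 0.00128 by limma) and 1.75-fold higher in tamoxifen (adjusted p = 9.31e-05).

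In complex II, Sdhc, which anchors the enzyme in the membrane, read 12.55, 12.56 and 12.53 in ESC and 12.21, 12.21 and 12.15 in EpiLC in ethanol. It fell by 0.36 (SE 0.08, adjusted p = 0.00182 by limma) and gave -0.17 in tamoxifen (adjusted p = 0.0844). Sdhb, the iron-sulphur subunit, gave -0.04 and -0.26 (SE 0.15 each), and Sdhd, the other anchor, gave -0.25 and -0.64 (SE 0.29 each). Neither passed the test.

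In complex III, Uqcrc1, a core subunit, read 13.09, 13.16 and 13.09 in ESC and 12.71, 12.75 and 12.75 in EpiLC in ethanol. It fell by 0.38 and by 0.35 (SE 0.07 each, limma adjusted p = 0.000621 and 0.00118). Uqcrb, which helps to bind coenzyme Q, fell by 0.72 and by 0.85 (SE 0.20 each). Cyc1, the cytochrome c1 subunit, gave -0.02 and 0.04 (SE 0.08 each), and Cycs, the mobile carrier cytochrome c, gave 0.05 in both (SE 0.13 each) on a probe detected on 14 of 19 arrays. Neither passed the test on these probes. A dimmer Cycs probe, detected on 3 arrays, gave -0.09 in ethanol and -0.54 in tamoxifen (limma adjusted p = 0.00888). Uqcr10, a small subunit, changed by -0.23 and by -0.35 (SE 0.08 each, limma adjusted p = 0.026 and 0.00307). Uqcrc2, the partner of Uqcrc1 in the core, gave 0.03 and 0.02 (SE 0.08 each), and Uqcrh and Uqcr11 also did not pass. Besides the complex IV isoforms above, Atp5k, Ndufab1, Ndufs1, Uqcrfs1 and Uqcrq were detected on no array by any probe.

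A group of 11 genes differed by over 0.5 on the log2 scale between the hybridization rounds, always higher in round 2: Atp5a1, Atp5e, Cox6c, Cox7a2, Cox7b, Ndufb2, Ndufb4, Ndufb5, Ndufb9, Sdhd and Uqcrb. They are 14.1% of the 78 genes, beside 7.4% of all features. In EpiLC, sample 1 read highest of the 3 for 10 of the 11 in ethanol and for 11 of the 11 in tamoxifen. For the other 67 genes it did so for 35 (52.2%) and 40 (59.7%), beside 33.8 and 38% of all features. The EpiLC ethanol samples and EpiLC tamoxifen sample 1 were read in round 1 alone, and ESC ethanol sample 1 in round 2 alone. The values of these samples rest on the fitted difference between the rounds. On round 2 arrays the EpiLC are tamoxifen samples 2 and 3 alone. The part of the round and of sample 1 in the changes of these genes was not tested beyond the values here. On arrays of round 1 alone, 21 genes were called in ethanol and 35 in tamoxifen, beside 4514 and 4902 of 9422 features. On arrays of round 2 alone 33 genes were called in tamoxifen, beside 4952 features. Of the 11 genes, 3 were called lower in ethanol and 6 in tamoxifen, and of the other 67 genes 23 and 30. Over all features 26.4 and 27.1% were called lower. Median log2 changes were -0.36 and -0.76 for the 11 genes and -0.16 and -0.22 for the other 67.

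Tamoxifen was compared with ethanol to ask what follows deletion of Foxd3. In ESC 0 of 78 genes rose and 1 fell, against 9.09% of all features called, 5.58% higher and 3.5% lower. With each sample scaled to an equal median, 795 features were higher and 120 lower in place of 526 and 330, and no respiratory chain gene was called. At an unadjusted p under 0.05, 4 genes passed. The groups did not overlap for 18 of 78 genes (32.5% of all features). The median log2 change was 0.02, beside -0.01 over all features. The gene that fell was Ndufaf5, with the values given above: the 3 tamoxifen samples lay below the 3 ethanol samples, and the change was -0.33 (SE 0.08, adjusted p = 0.0282 by limma). Leaving out any ethanol sample, or tamoxifen sample 2 or 3, took its adjusted p to between 0.0785 and 0.105. A second, dimmer Ndufaf5 probe, detected on 4 arrays, gave 0.01.

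In EpiLC 0 of 78 genes were called with tamoxifen, against 6.91% of all features, 4.74% higher and 2.17% lower. Equal medians gave 315 features higher and 243 lower in place of 447 and 204. At an unadjusted p under 0.05 limma passed 2 genes. The groups did not overlap for 6 genes (24.7% of all features). Ndufaf5 again read lower in all 3 tamoxifen samples, with a change of -0.21 (SE 0.08, adjusted p = 0.158). The difference of the tamoxifen effects between EpiLC and ESC was called for 0 of 78 genes, against 2.59% of all features, 1.41% higher and 1.18% lower. With equal medians, 78 features were higher and 259 lower in place of 133 and 111. Its lowest adjusted p was 0.282 (Cox6c), and 1 gene passed at an unadjusted p under 0.05. Of the 3 detected trophoblast markers (of 6), 1 was called higher with tamoxifen in ESC and 2 in EpiLC. Their summed intensity moved in ESC from 3347 to 4084 in ethanol to 6933 to 7873 with tamoxifen. In EpiLC it moved from 1926 to 2949 to 5899 to 7621. The sum of the detected primitive endoderm markers (2 of 7) moved in ESC from 555 to 728 to 1596 to 2020. In EpiLC the sum of the naive markers moved from 5705 to 7580 to 8713 to 10465, with 3 of 8 called higher and 0 lower. The sum of the EpiLC markers moved there from 35236 to 37028 to 29376 to 33190, with 3 of 7 called lower and 1 higher. The part of these markers in these results was not tested.

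Samples of a cell type with the same number deviated together, so the fit was repeated with that number as a block. Under the block, 4 of 78 genes were called in ESC (21.6% of all features), 2 in EpiLC (19.9%) and 1 for the difference (12.2%). Cox6c, a small complex IV subunit, was called in all 3. In ESC it read 12.07, 11.92 and 11.64 in ethanol and 12.75, 12.27 and 12.15 with tamoxifen, higher within each number by 0.68, 0.35 and 0.51 (log2 0.51, SE 0.09, limma adjusted p = 0.00717). In EpiLC it read 12.04, 12.13 and 11.18 in ethanol and 11.71, 11.61 and 10.96 with tamoxifen, and the differences within a number were -0.34, -0.52 and -0.22 (log2 -0.36, SE 0.09, adjusted p = 0.0296). The effects differed by -0.87 (SE 0.12, adjusted p = 0.00836 with the block, 0.282 without it). The Cox6c signal was 0.53 higher in hybridization round 2 than in round 1, and the rounds were not balanced within the numbers. ESC ethanol sample 1 was read in round 2 alone. The EpiLC ethanol samples and EpiLC tamoxifen sample 1 were read in round 1 alone. The part of the round in the Cox6c differences was not tested.

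The changes of the other genes called with the block were smaller. In ESC, Ndufaf5 kept its call (adjusted p = 0.0155 by limma with the block), Sdhc fell by 0.23 (SE 0.06, adjusted p = 0.0383) and Sdhd, detected on 3 of 5 ESC ethanol arrays and 6 of 6 ESC tamoxifen arrays, rose by 0.28 (SE 0.08, adjusted p = 0.0426). In EpiLC, Atp5o, the subunit that ties the stator to the head of the ATP synthase, fell by 0.28 (SE 0.08, adjusted p = 0.0395). Without the block Sdhc, Sdhd, Atp5o and Cox6c had adjusted p of 0.0845, 0.619, 0.204 and, for Cox6c, 0.286 in ESC and 0.491 in EpiLC.

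**Figure D5:**
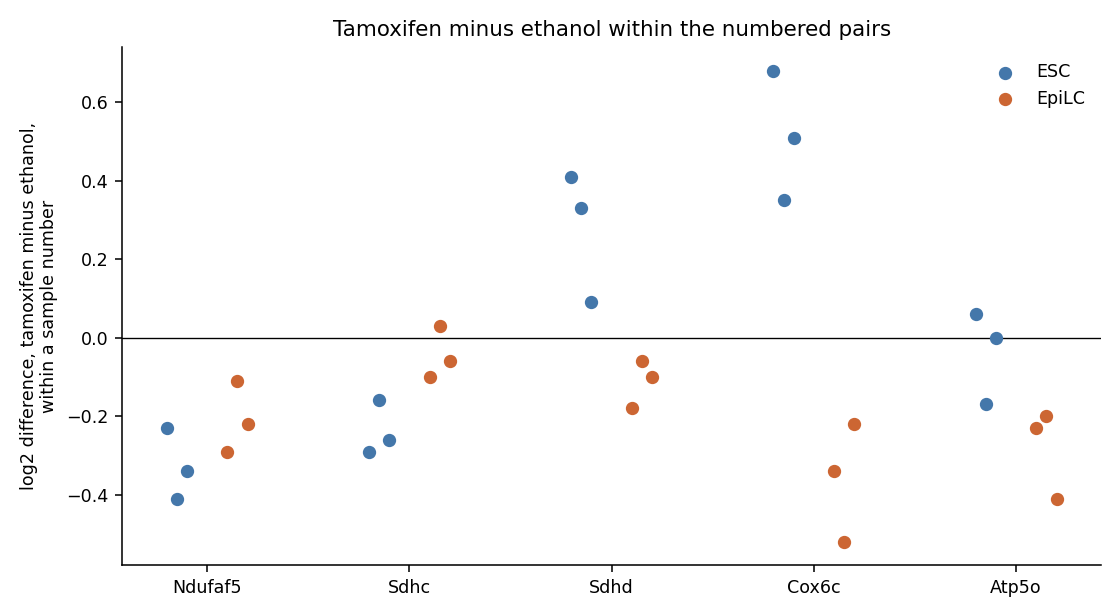
Log2 difference of tamoxifen minus ethanol within each sample number (vertical axis) for the 5 genes called in a tamoxifen comparison with or without the block, in ESC and EpiLC, with 1 point per number. Cox6c and Sdhd lie above 0 in ESC and below 0 in EpiLC in all 3 numbers, and Ndufaf5 lies below 0 in both cell types.

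Other genes of the pathway were taken from lists chosen with earlier results of these data known, and the lists were not tested against the respiratory chain genes. Their counts stand beside 29.8% of all features higher and 26.4% lower in ethanol, and 29.4 and 27.1% in tamoxifen. Of 33 assembly factors with other symbols, 6 were higher and 7 lower in EpiLC in ethanol, and 7 and 13 in tamoxifen, so that 21.2 and 39.4% were lower. Cox20, needed to mature a mitochondrially made complex IV subunit, fell by 0.93 and by 1.28, and Cox18, which inserts the same subunit, by 0.56 and by 1.04. Coa7 rose by 0.75 in ethanol, and Taco1, a translational activator, fell by 0.70 in tamoxifen. Of 17 genes of the citrate cycle and pyruvate entry, 4 were higher and 5 lower in ethanol, 3 and 5 in tamoxifen. Pdk1, a kinase that switches off pyruvate dehydrogenase, rose by 1.68 and by 1.81, while Pdha1, a subunit of that enzyme, fell by 0.63 and by 0.82. Idh3a and Dlst, which contribute to enzymes of the cycle, rose by 0.79 and by 0.52 in ethanol and by 0.48 and by 0.51 in tamoxifen.

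Of 15 regulators of mitochondrial biogenesis and transcription, 7 were higher and 3 lower in ethanol, 6 and 4 in tamoxifen, so that 20 and 26.7% were lower. Esrrb, an orphan receptor that is also a naive marker, fell by 3.99 in ethanol and fell by 3.42 in tamoxifen. Lin28a, an RNA-binding protein, rose by 1.77 and by 2.26, and Myc, detected on no ESC array, was at least 1.65-fold and 1.25-fold higher. Of 12 genes of coenzyme Q synthesis and other electron entry, 4 were lower in ethanol, and in tamoxifen 5 were lower and 2 higher. Coq3 fell by 0.98 and by 0.86, Etfb, an electron carrier of fatty acid oxidation, by 0.87 and by 0.79, and Coq6 by 0.37 and by 0.45. Of 5 carriers, Vdac1, a pore of the outer membrane, was the 1 lower in ethanol (by 0.36), and Vdac1, Slc25a3 and Vdac3 were lower in tamoxifen, by 0.60, 0.34 and 0.30.

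With tamoxifen in ESC, Tmem70, an assembly factor of the ATP synthase, rose by 0.45 (SE 0.11, limma adjusted p = 0.0273). Coq7 and Dhodh fell by 0.40 and by 0.32, and Ppargc1b, a coactivator of mitochondrial genes detected on no ESC tamoxifen array, was at least 1.15-fold lower. In EpiLC with tamoxifen Cox20 fell by 0.99, Ppargc1b by 0.88, Myc by 0.58 and Idh3a by 0.44. The tamoxifen effects on Tmem70 differed by -0.79 between the cell types (SE 0.16, adjusted p = 0.0258). It was the 1 gene of these lists called for that difference.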

How the data were processed

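The deposited non-normalized table holds, per probe and array, mean bead intensity on a linear scale, a detection p-value, the standard error of the bead signal and the count of beads, per the file headers; how its background was treated is not given in the sources used here. A second deposited table holds intensity values normalized by the authors, with limma per the submitters' processing notes; 10 values under 1 were set to 1, and it served as an alternative. The arrays (10330 to 11481 of 25697 probes detected per array at a detection p-value under 0.01) were background-corrected, quantile-normalized and put on the log2 scale by neqc, with an offset of 16 (limma 3.58.1, R 4.3.3). Each probe was fitted with sample and hybridization round as terms, which left 1 value for each of 12 samples. Probes detected on at least 3 arrays were kept (12529), named by gene identifier, and the brightest probe per symbol was used (9422 features, 8680 with a symbol); 14 members had more than 1 kept probe, and in 0 of them were 2 probes called in opposing directions. Groups were compared with lmFit and eBayes across all features in 5 contrasts, with Benjamini-Hochberg adjustment. Exact permutation of 3 against 3 samples cannot give a p below 0.1. The fits were tested on simulated data.

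Within ESC, a sample's deviation from its group mean had a correlation of 0.398, 0.371 and 0.471 with that of the other treatment's sample of equal number, and within EpiLC of 0.547, 0.567 and 0.497, so the numbers were taken as pairs within a cell type. Members and lists were chosen with earlier results of these data known. Genes were named by rule: all members called with tamoxifen, the 12 largest non-overlapping changes between the states, isoform families, complex II, cytochromes, the smallest change per complex, undetected members and up to 3 genes per list and comparison; other members were named after their values were seen, to account for them. Alternatives changed the scaling, background correction, probe choice, filter, arrays, block and samples. Levels were not compared between probes.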

Additional observations from a re-analysis of the deposited data

Results flagged for a closer look

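For 10 of 78 genes (12.8%, beside 10.3% of all features) tamoxifen minus ethanol had one sign in all 3 numbered pairs of ESC and the opposite sign in all 3 of EpiLC. Cox6c showed the largest such difference, -0.87 on the log2 scale (EpiLC effect minus ESC effect), and was the 1 gene of the 10 called for it with the replicate block (adjusted p = 0.00836 by limma). The differences of the other 9 did not pass the test with or without the block: they were -0.44 for Cox7a2, -0.39 for Sdhd, -0.32 for Ndufa12, -0.30 for Atp5c1, -0.17 for Ndufs8 and -0.14 for Atp5mpl, higher in ESC with tamoxifen, and 0.15 for Atp5g2, 0.13 for Ndufs6 and 0.10 for Atp5l, lower in ESC with tamoxifen. The 12.8% is near the share of all features. Some signs rest on single pairs of 0.01 (Ndufs8, ESC), 0.02 (Cox7a2, ESC) or 0 after rounding (Atp5mpl in ESC, Atp5g2 in EpiLC). Cox6c, Cox7a2 and Sdhd also differed by 0.53, 1.01 and 1.07 between the hybridization rounds, which were not balanced within the pairs. The part of the round in these signs was not tested.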

How the results depend on the processing

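The count of genes called in EpiLC against ESC stayed within 1.5 times of the main value under every alternative for ethanol (27, range 21 to 37 and, leaving out 1 sample at a time, 20 to 28) and, for tamoxifen (37), under all but the omission of EpiLC tamoxifen sample 3 (24; range 24 to 40 leaving out 1 sample). No called gene reversed, and 18 of 27 and 21 of 37 kept their call under all alternatives. Calls lost under several alternatives included, in tamoxifen, Atp5c1 (5 of 24) and Cox6a1 (4 of 24). In ethanol they included Uqcr10 (5 of 23), Atp5g2 (4 of 23) and Ndufb4 (4 of 22). Scaling to equal medians shifted the median of all features by -0.101 in EpiLC against ESC in tamoxifen and by -0.185 in the difference. In EpiLC against ESC in tamoxifen it called 49 genes and 5103 features, in place of 37 and 5326. For tamoxifen in ESC the 1 call became 0 with equal medians, with the mean of a gene's probes and on round 1 arrays, 2 without background correction, in the authors' table, without a detection filter and on round 2 arrays, and 0 to 1 leaving out 1 sample. The cause of these changes was not tested. Without a detection filter 1 gene, Ndufab1, was called for the difference of the effects. With the replicate block, 4 genes were called in ESC, 2 in EpiLC and 1 for the difference, where the fit without pairing gave 1, 0 and 0. Among all features the block moved the calls from 856 to 2039, 651 to 1876 and 244 to 1147, and round 1 arrays to 401, 337 and 61. The authors' table called 1071 features in EpiLC and 396 for the difference, and leaving out 1 sample gave as few as 523 in ESC, 357 in EpiLC and 109 for the difference, for which probes detected on every array gave 159. A block shared by all 4 groups, chosen after seeing the data, gave 37 and 43 genes between the states, beside 5832 and 5857 features. Testing every kept probe, also added, gave 27 and 39 genes, beside 6846 and 6797 of 12529 probes. Intensities near background limit the 9 undetected genes and those not detected on every array (Atp5e, Cox7b, Cox8c, Cycs, Ndufb2, Ndufb4 and Sdhd).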
